A study of Homo sapiens with 9 samples.

Results

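Histone genes were followed through 2 treatments that are used to stop the cell cycle at different points, in Raji, an established human Burkitt lymphoma B-cell line grown in culture. All protein-coding histone genes were taken by name, from current symbols and older HIST, H1F, H2AF and H3F names, and pseudogenes were left out. That gave 56 of the 15436 listed genes. Of these, 48 are replication-dependent genes, namely 3 H1, 10 H2A, 14 H2B, 9 H3 and 12 H4 genes, and 8 are variants, namely H2AX, H2AZ1, H2AZ2, MACROH2A1, H3-3A, H3-3B, H3-5 and H1-10. There were 9 RNA libraries, 3 each from cells given hydroxyurea (HU), cells given thymidine and nocodazole (Thy-Noc), and DMSO controls. HU blocks ribonucleotide reductase, and so the supply of DNA building blocks. Thymidine in excess also halts DNA synthesis, and nocodazole takes microtubules apart. The labels give neither doses nor times, and name no other allele or agent. All libraries came from the same cell line, and nothing in the labels says that replicates were separate cultures, so p-values measure the spread between these libraries.

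The core histones H2A, H2B, H3 and H4 wrap DNA in the nucleosome, and H1 binds the DNA between nucleosomes. Replication-dependent genes lie in clusters and are expressed in S phase, when new DNA has to be packed. Their mRNAs typically end in a short stem-loop instead of a poly(A) tail, the stem-loop is bound by SLBP, and in other mammalian cells these mRNAs are known to be degraded when DNA synthesis stops. Variant genes are expressed outside S phase as well and give polyadenylated mRNAs. H2AX is the variant phosphorylated around DNA breaks, the H2A.Z proteins of H2AZ1 and H2AZ2 sit at promoters, macroH2A marks silent chromatin, and H3.3 replaces H3 outside replication.

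The libraries were made with a kit that selects polyadenylated mRNA, so replication-dependent genes were measured in whatever of their RNA that kit captured. What share of each histone mRNA this was, was not tested. Of the 48 replication-dependent genes, 36 lie on chromosome 6 and 10 on chromosome 1. To show what sets their mRNAs apart, the transcripts of GENCODE release 29 were searched on the transcript strand for the 16-base consensus of the histone stem-loop. It stood in 115 of 206694 transcripts (0.0556%). With 5 bases required on each side, it was found in 28 of the 47 replication-dependent genes listed there and in 1 variant gene, H2AX. A gene without a match may still have a stem-loop, since its annotated transcript may end before it. In GENCODE release 29 the H2BC12 gene, for example, spans only chr6:27146418-27146798, while its RefSeq span is 8566 bases. No match was found for H2BC12 or H1-5, which are described below. Other genes described below carry these forms, with the stem-loop in capitals and 5 flanking bases on each side in lower case.
H2AC18: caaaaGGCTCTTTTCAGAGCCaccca
H2AC6: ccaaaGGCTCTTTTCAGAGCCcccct
H2BC5: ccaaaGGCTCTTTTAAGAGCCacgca
H4C8: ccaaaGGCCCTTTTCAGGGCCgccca
H4C9: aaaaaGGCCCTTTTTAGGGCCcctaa
H4C15: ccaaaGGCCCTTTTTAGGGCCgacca
H2AX: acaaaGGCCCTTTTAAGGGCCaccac
On GRCh38 the H2AC18 form lies at chr1:149842218-149842243 on the minus strand, the H2BC5 form at chr6:26158582-26158607 on the plus strand and the H4C8 form at chr6:26285126-26285151 on the minus strand. The H2AX form lies at chr11:119094893-119094918 on the minus strand, 1044 bases before the end of its transcript. The arms differ by family: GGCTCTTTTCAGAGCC stood in 14 genes of the H2A, H2B and H3 families, while the 8 H4 genes with a match carried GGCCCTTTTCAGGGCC (5 genes) or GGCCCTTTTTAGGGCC (3 genes). In 21 of the 28 replication-dependent genes, some annotated transcript ran at least 100 bases past the stem-loop. H2AC19 carries the same 26 letters as H2AC18, and the whole 549-base H2AC18 transcript occurs unbroken in the 564-base H2AC19 transcript, so the counts of this pair cannot be separated. The same holds for H3C14 and H3C15, whose 1656-base transcripts are identical, and all such counts are uncertain.

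Promoters are shown for 4 genes whose HU and DMSO libraries did not overlap. The 100 bases before the start were taken from RefSeq on GRCh38.p14, with 3 motifs in capitals: the octamer ATTTGCAT, which POU2F1 and POU2F2 bind, the CCAAT box and the TATA box, searched for as TATAAA. Each is marked on either strand, so CCAAT can appear as its reverse complement.
H2BC12: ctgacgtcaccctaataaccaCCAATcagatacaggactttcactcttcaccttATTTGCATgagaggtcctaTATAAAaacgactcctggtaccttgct
H2BC5: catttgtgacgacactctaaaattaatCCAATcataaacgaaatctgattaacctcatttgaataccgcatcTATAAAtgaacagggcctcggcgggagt
H2AC18: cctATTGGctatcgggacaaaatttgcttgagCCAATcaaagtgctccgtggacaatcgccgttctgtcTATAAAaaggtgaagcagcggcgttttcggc
H2AX: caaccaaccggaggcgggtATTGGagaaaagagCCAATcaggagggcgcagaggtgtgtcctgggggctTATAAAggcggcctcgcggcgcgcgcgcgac
These stretches are chr6:27146859-27146958 (minus strand), chr6:26158021-26158120 (plus strand), chr1:149842751-149842850 (minus strand) and chr11:119095466-119095565 (minus strand), in that order. A promoter of 300 bases, from 250 before to 50 after the start, was listed for 51 of the 56 genes, and the first was used where several starts were listed, as for H2BC12 and H2BC5. The octamer stood in 10 of 13 replication-dependent H2B promoters, 6 of 10 H2A promoters and none of 10 H4 promoters, against 1.77% of all 35116 promoters. In 8 H2B promoters it began 45 to 49 bases before the start. CCAAT stood in 36 of 44 replication-dependent promoters, against 34.6% of all promoters, but in only 2 of the 10 H4 promoters. TATAAA stood in 28 of the 44, against 11.5%. Among the variants, 5 of 7 promoters held CCAAT and 4 of 7 held TATAAA. A match is a run of letters, and binding was not measured.

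Summed over all 48 genes, replication-dependent histone RNA was higher in every HU library than in any DMSO library. Levels are CPM, counts scaled to a common library size with TMM factors, and can be compared between libraries for a gene or a sum, but not between genes, since they are not per length. The summed level was 77.7, 34.8 and 47.3 CPM in HU, 34.0, 27.8 and 35.2 CPM in Thy-Noc, and 26.5, 21.5 and 27.1 CPM in DMSO. All 3 HU libraries lay above all 3 DMSO libraries, HU replicate 1 far above the others, while HU replicate 2 fell inside the Thy-Noc range. The means were 53.3 ± 22.1 CPM in HU, 32.4 ± 3.98 CPM in Thy-Noc and 25.0 ± 3.09 CPM in DMSO (SD, n = 3 each), ratios of 2.13 for HU over DMSO and 1.29 for Thy-Noc over DMSO. In such bulk libraries, a change in the number of cells that make an RNA and a change in RNA per cell cannot be told apart. The difference was not seen in every gene of the class: 28 of the 48 genes had a positive log2 fold change in HU against DMSO, with a median of 0.20, beside 0.029 over all listed genes (fitted without a filter on low counts). Without HU replicate 1 that median was -0.096. Groups did not overlap, with HU higher, for 8 of the 48 genes (16.7%), beside 13.7% of all listed genes, and with HU lower for 3 (6.25%), beside 13.8%. The 8 count H2AC18 and H2AC19 as 2 genes, though their counts cannot be separated.

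**Figure D1:**
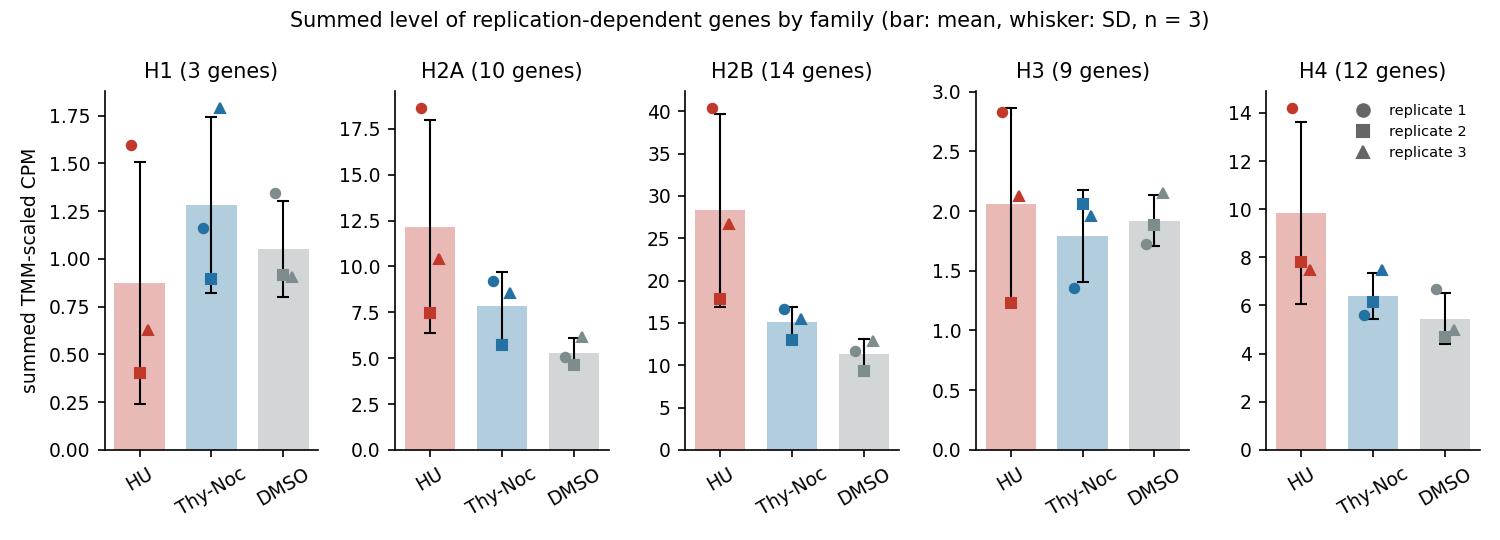
Summed TMM-scaled CPM (y axis, from 0 in each panel) of the replication-dependent genes of each family in HU, Thy-Noc and DMSO. Bars are means, whiskers SD and points the 3 libraries; H2A, H2B and H4 sums stand higher in all 3 HU libraries than in any DMSO library, and H1 and H3 sums overlap.

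By family, the H2A, H2B and H4 sums were higher in all HU libraries than in any DMSO library. The H2B sum was 40.4, 17.8 and 26.7 CPM in HU, against 11.7, 9.35 and 12.9 CPM in DMSO, a ratio of means of 2.51. The H2A sum was 18.7, 7.48 and 10.4 CPM in HU, against 5.08, 4.63 and 6.18 CPM in DMSO, a ratio of 2.30, and the H4 sum had a ratio of 1.80. The H3 sum, with a ratio of 1.08, and the H1 sum, with a ratio of 0.83, overlapped between HU and DMSO, as the plot of summed levels by family shows. Sums weigh genes by their counts: without H2BC12, a subset chosen after values were seen, the H2B sum was 15.2, 7.33 and 9.97 CPM in HU, against 5.90, 5.43 and 7.67 CPM in DMSO, a ratio of 1.71 with overlap. In the H2A sum, HU replicate 2 held 1.79 CPM of H2AC18 and 1.88 CPM of H2AC19, a pair whose counts cannot be separated. Its 7.48 CPM in all stood against 6.18 CPM in DMSO replicate 3. In the H4 sum, HU replicate 3 had 7.48 CPM, 2.15 CPM of it from H4C9, against 6.68 CPM in DMSO replicate 1. The H2A and H4 gaps thus also lean on few genes, and are not shown to be family-wide. Taken per gene, the families ranked otherwise, with median log2 fold changes of 0.44 for H2A (7 of 10 positive), 0.38 for H3 (6 of 9), 0.13 for H2B (7 of 14), 0.11 for H4 (7 of 12) and -0.87 for H1 (1 of 3). No test was made of the sums or medians.

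Only 13 of the 48 replication-dependent genes reached 1 CPM in at least 3 libraries and were tested, so most of the class had low counts. The other 35 had between 1 and 124 counts in any library, and their summed level was 12.1, 6.61 and 7.61 CPM in HU, against 8.81, 8.40 and 9.44 CPM in DMSO, a ratio of 0.99. Since the filter kept genes that were high in HU, this ratio depends on it. Of the 25 replication-dependent genes with an annotated span of at least 1000 bases in GENCODE release 29 or RefSeq, 11 passed the filter, and of the 23 shorter ones 2 did, H2AC18 and H2AC19. That limit was chosen after values were seen. The 5 tested genes H2AC18, H2AC19, H4C8, H4C9 and H4C15 had no DMSO library at 1 CPM, so they passed through the treated groups, and counts over the 13 genes are therefore no measure of the class.

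Among the tested genes, 3 of the 13 replication-dependent genes were higher in HU than in DMSO at an adjusted p under 0.05 (edgeR quasi-likelihood, Benjamini-Hochberg over 11346 genes), and none was lower. At an unadjusted p under 0.05 there were 8, all higher in HU. H2AC18 and H2AC19 passed the filter through their HU libraries alone, and in the fit without a filter, which called 0.862% of all genes higher in HU, both were still called (edgeR adjusted p = 0.0438 and 0.0449), while H2BC12 was not (adjusted p = 0.0672). Of all tested genes 2% were called higher in HU, 1.56% lower and 3.56% in either direction, and 21.2% had an unadjusted p under 0.05. The called genes were the H2A pair H2AC18 and H2AC19 and the H2B gene H2BC12. DESeq2, which called 9.87% of all genes it tested higher in HU, called 4 more, H2BC5, H4C8, H4C9 and H4C15, all higher in HU.

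**Figure D2:**
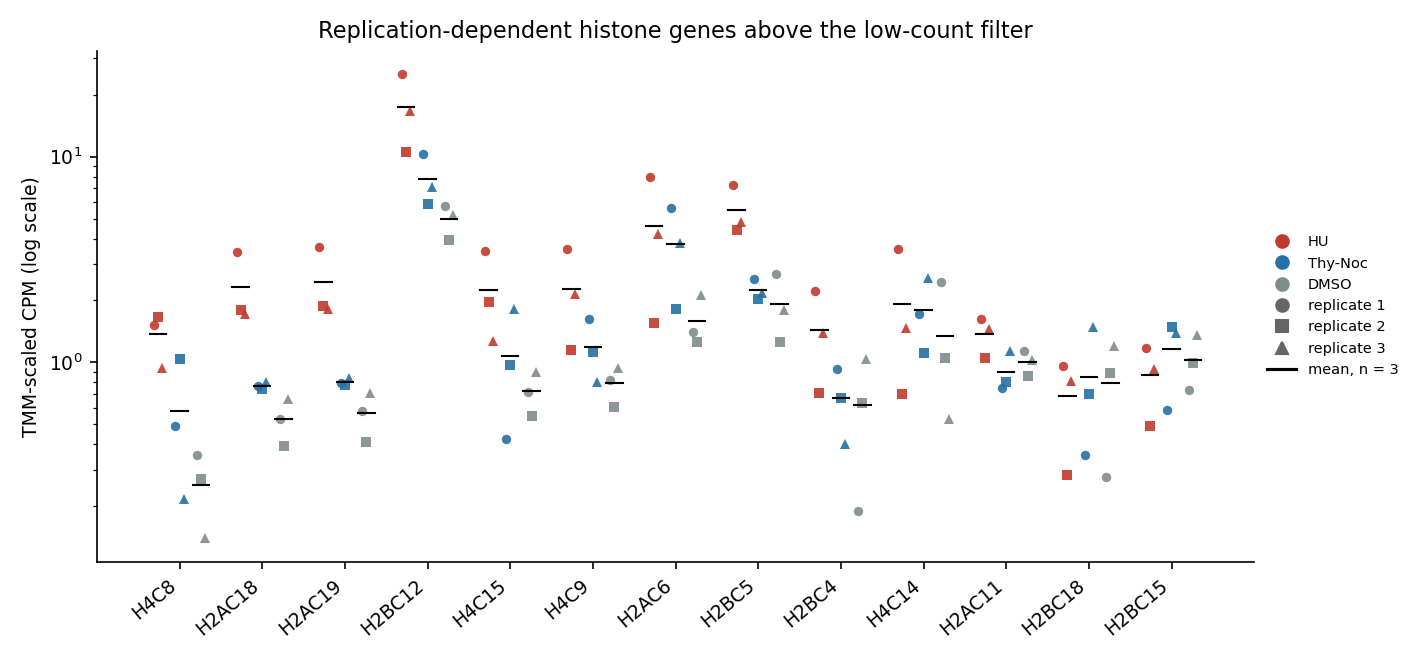
TMM-scaled CPM (log axis) of the 13 replication-dependent genes that passed the low-count filter, in HU, Thy-Noc and DMSO from left to right for each gene. Points are single libraries, with a shape for each replicate, and lines are means of 3; for H2BC12, HU libraries sit between 10.5 and 25.2, above all Thy-Noc and DMSO libraries.

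H2AC18 and H2AC19 (chr1:149842188-149842736 and chr1:149851061-149851624) encode the same H2A protein. H2AC18 stood at 3.44, 1.79 and 1.72 CPM in HU, 0.765, 0.740 and 0.808 CPM in Thy-Noc, and 0.532, 0.392 and 0.661 CPM in DMSO. All HU libraries lay above all Thy-Noc libraries, and all of these above all DMSO libraries. In HU against DMSO its log2 fold change was 2.13 ± 0.35 (SE; edgeR adjusted p = 0.0284), a ratio of means of 4.38. H2AC19 gave 2.11 ± 0.35 (edgeR adjusted p = 0.0302), but since the pair shares its sequence this is the same measurement made again, and with the pair counted as 1 gene the class had 2 calls in place of 3. Both calls ended when any DMSO library, or Thy-Noc replicate 2 or 3, was left out, and with only the 6 libraries compared (adjusted p of H2AC18 up to 0.103 over the alternatives tried), while the log2 fold change of H2AC18 ran from 1.96 to 2.33 with a library left out, and from 1.08 over all the alternatives that could test it. Without an HU library neither gene reached 1 CPM in 3 libraries, so neither was tested.

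The other tested H2A genes were H2AC6 and H2AC11. H2AC6 (chr6:26124145-26139116) stood at 7.96, 1.55 and 4.22 CPM in HU, 5.61, 1.82 and 3.82 CPM in Thy-Noc, and 1.41, 1.25 and 2.12 CPM in DMSO. Replicates 1 and 3 of both treatments were above all DMSO libraries and replicate 2 of both was within the DMSO range, and the log2 fold change in HU against DMSO of 1.52 ± 0.65 did not pass (edgeR adjusted p = 0.235). H2AC11 had 1.62, 1.05 and 1.45 CPM in HU, against 1.14, 0.859 and 1.03 CPM in DMSO, and did not pass either (edgeR adjusted p = 0.399).

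H2BC12, an H2B gene, was called as well. Its level was 25.2, 10.5 and 16.7 CPM in HU, 10.2, 5.88 and 7.09 CPM in Thy-Noc, and 5.76, 3.92 and 5.21 CPM in DMSO. Every HU library was above every other library, and every Thy-Noc library was just above every DMSO library. The log2 fold change in HU against DMSO was 1.81 ± 0.38 (edgeR adjusted p = 0.0492), close to the threshold. Left out 1 library at a time, the call held only without HU replicate 2, and the log2 fold change ran from 1.46 to 2.08. It also ended with median-of-ratios scaling, with robust dispersions, without a low-count filter and with only the 6 libraries compared (adjusted p up to 0.157 over the alternatives tried).

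H2BC5 (chr6:26158146-26171349), another H2B gene, stood at 7.24, 4.42 and 4.82 CPM in HU, 2.54, 2.04 and 2.17 CPM in Thy-Noc, and 2.69, 1.25 and 1.81 CPM in DMSO. HU libraries again lay above all others, while Thy-Noc and DMSO libraries overlapped. The log2 fold change in HU against DMSO was 1.52 ± 0.34 (edgeR adjusted p = 0.0565; DESeq2 adjusted p = 0.000151), on either side of the threshold by tool. The other tested H2B genes overlapped between HU and DMSO. H2BC4 had 2.23, 0.713 and 1.38 CPM in HU, against 0.190, 0.635 and 1.04 CPM in DMSO (edgeR adjusted p = 0.364). H2BC15 and H2BC18 had negative log2 fold changes of -0.25 and -0.21 that did not pass (edgeR adjusted p = 0.853 and 0.929). Under the filter, H2BC12L, an H2B gene on chromosome 21, had 15, 6 and 16 counts in HU, against 6, 4 and 3 counts in DMSO, without overlap after scaling.

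Every replication-dependent H4 gene tested here encodes the same H4 protein. H4C8 (chr6:26277609-26285638) stood at 1.52, 1.66 and 0.944 CPM in HU, 0.492, 1.04 and 0.217 CPM in Thy-Noc, and 0.355, 0.271 and 0.140 CPM in DMSO. HU and DMSO libraries were apart, and Thy-Noc libraries spread across both ranges. Its log2 fold change in HU against DMSO was 2.42 ± 0.63 (edgeR adjusted p = 0.0844). H4C9 had 3.54, 1.15 and 2.15 CPM in HU, against 0.824, 0.607 and 0.941 CPM in DMSO, a log2 fold change of 1.53 ± 0.46 (edgeR adjusted p = 0.120). H4C15 had 3.49, 1.96 and 1.27 CPM in HU, against 0.723, 0.551 and 0.903 CPM in DMSO, a log2 fold change of 1.62 ± 0.59 (edgeR adjusted p = 0.176). HU libraries were above all DMSO libraries for both genes, and DESeq2 called both (adjusted p of 0.0118 for H4C9 and 0.0424 for H4C15). H4C14, which has the same 26 letters around its stem-loop as H4C15, overlapped between HU and DMSO, with 3.57, 0.700 and 1.48 CPM in HU, against 2.46, 1.05 and 0.534 CPM in DMSO. Its log2 fold change of 0.51 ± 0.74 turned to -0.30 without HU replicate 1. How reads were divided between the near-identical H4C14 and H4C15 is not known, so the gap between HU and DMSO for H4C15 alone is uncertain. The remaining H4 genes were under the filter, with H4C16 on chromosome 12 the most spread, at 37, 93 and 11 counts in HU, against 59, 67 and 106 counts in DMSO.

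No H3 or H1 gene of the replication-dependent class passed the filter. Some of them were lower in HU, at a few counts a library. H1-5, a linker histone gene (chr6:27866849-27867529), had 4, 2 and 2 counts in HU, 14, 19 and 23 counts in Thy-Noc, and 14 counts in each DMSO library. HU libraries lay below all others, and the ratio of HU over DMSO was 0.193 (95% interval 0.0783 to 0.416, counting error only). In the fit without a low-count filter, which called 0.564% of all genes lower in HU, H1-5 was called lower in HU than in DMSO (log2 fold change -2.31 ± 0.34, edgeR adjusted p = 0.0304). H3C4 had 2, 1 and 1 counts in HU, against 2, 8 and 11 counts in DMSO, a ratio of 0.193 (95% interval 0.0482 to 0.572), and after scaling its HU libraries were below all DMSO libraries. Since no gene held 0, values of 1 or 2 may lie at a floor. H1-5 and H3C4 were not refitted with 1 subtracted, so these ratios and the H1-5 call were not checked for it. The third gene without overlap, H2AC17, had 21, 5 and 27 counts in HU, against 21, 40 and 30 counts in DMSO. Its gap rests on scaling alone, at 0.2657 CPM in HU replicate 1 and 0.2662 CPM in DMSO replicate 1. The identical H3C14 and H3C15 differed from these, with 32, 12 and 35 counts of H3C14 in HU, against 20, 15 and 18 counts in DMSO, and overlapped between the groups.

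**Figure D3:**
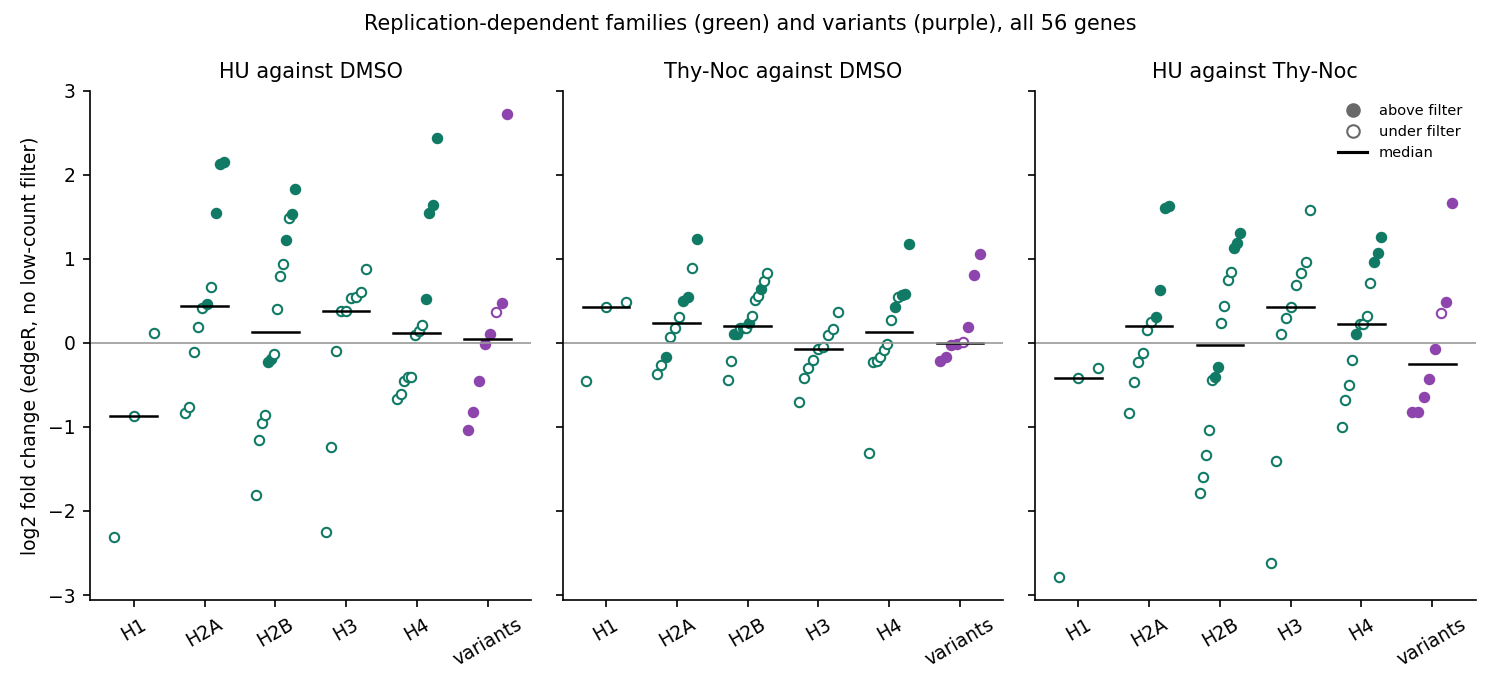
Log2 fold changes (y axis; edgeR without a low-count filter) of all 56 genes in HU against DMSO, Thy-Noc against DMSO and HU against Thy-Noc, by family, with filled points for genes above the filter, open points for genes under it and lines for medians. In HU against DMSO the replication-dependent points run from -2.31 to 2.43.

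The plot of fold changes by family marks which genes passed the filter, and since some passed through HU alone, the split between filled and open points in HU against DMSO is in part made by the filter. The 35 genes under it had a median log2 fold change of -0.094, with 17 positive and 18 negative. HU replicate 2 had the lowest level of the HU libraries in 29 of the 48 genes, and in 9 of the 13 tested ones. The mean summed level in HU was 62.5 CPM without HU replicate 2, 2.50 times that in DMSO, and 41.0 CPM without HU replicate 1, 1.64 times that in DMSO.

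Variants were as often higher as lower in HU than in DMSO, and the H2AX and H2A.Z genes were lower in all HU libraries. No variant passed edgeR's test. H2AX and H2AZ2 had an unadjusted p under 0.05, and these 2 were called by DESeq2, beside 9.66% of all its genes called lower. In HU against DMSO, 4 of the 8 had a positive log2 fold change and the median was 0.046. The groups did not overlap for 3 genes, H2AX, H2AZ1 and H2AZ2, all lower in HU (37.5%, beside 13.8% of all listed genes). No variant was higher in HU without overlap. The summed level of the variants was 1673, 796 and 1651 CPM in HU, against 1206, 1204 and 1336 CPM in DMSO, a ratio of 1.10, and 0.96 without H3-3A. The difference between the classes was not tested, since the members were chosen with earlier results known.

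**Figure D4:**
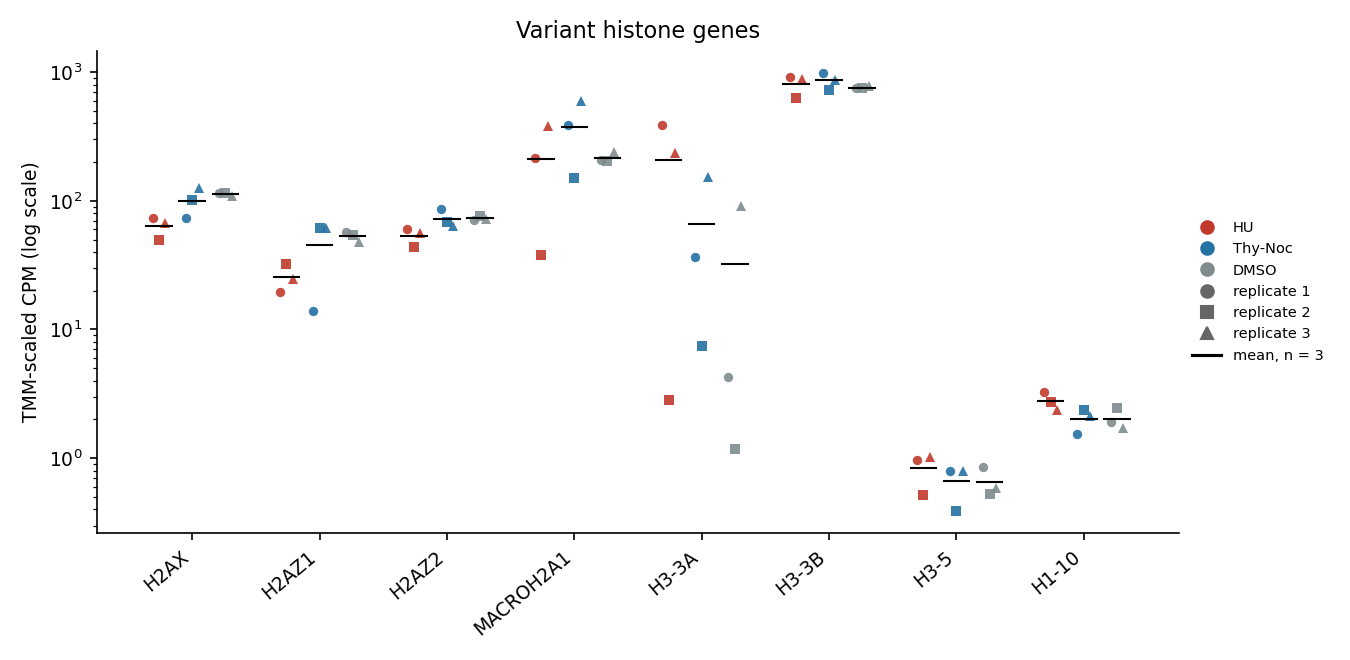
TMM-scaled CPM (log axis) of the 8 variant genes in HU, Thy-Noc and DMSO from left to right for each gene, with a shape for each replicate and lines for means of 3. H2AX lies between 49.8 and 73.2 in HU and between 108 and 116 in DMSO, and H3-3A and MACROH2A1 spread more than 10-fold within a group.

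H2AX (chr11:119093854-119095467) stood at 73.2, 49.8 and 66.8 CPM in HU, 73.9, 102 and 125 CPM in Thy-Noc, and 115, 116 and 108 CPM in DMSO. All HU libraries were below all DMSO libraries, and Thy-Noc libraries ran from the top of the HU range to above DMSO. The log2 fold change in HU against DMSO was -0.84 ± 0.22 (edgeR adjusted p = 0.0844; DESeq2 adjusted p = 0.00463). H2AX is the variant that carries the stem-loop printed above. Its mRNA is known to exist in a short stem-loop form and a long polyadenylated form, which these values do not separate.

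H2AZ1 (chr4:99948086-99950388) had 19.6, 32.2 and 24.6 CPM in HU, 13.8, 61.7 and 61.2 CPM in Thy-Noc, and 56.8, 54.0 and 48.0 CPM in DMSO. HU libraries were below DMSO libraries, and Thy-Noc replicate 1 was below both. The log2 fold change in HU against DMSO was -1.06 ± 0.52 (edgeR adjusted p = 0.300). H2AZ2 (chr7:44826791-44848083), which encodes the second H2A.Z protein, had 60.4, 43.4 and 55.7 CPM in HU, against 71.1, 76.8 and 72.7 CPM in DMSO. These did not overlap either, with a log2 fold change of -0.47 ± 0.16 (edgeR adjusted p = 0.162; DESeq2 adjusted p = 0.0369).

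The H3.3 genes H3-3A and H3-3B encode the same protein. H3-3B, at 915, 627 and 884 CPM in HU, 989, 723 and 870 CPM in Thy-Noc, and 749, 749 and 776 CPM in DMSO, kept within a narrow range, and its log2 fold change in HU against DMSO was 0.093 ± 0.17 (edgeR adjusted p = 0.845). H3-3A (chr1:226061851-226072001) had 387, 2.81 and 235 CPM in HU, 36.8, 7.42 and 154 CPM in Thy-Noc, and 4.30, 1.19 and 90.6 CPM in DMSO. Libraries of the same group thus differed by far more than the groups did, with replicate 2 lowest in every group. MACROH2A1 (chr5:135333900-135399914) also ranged widely, at 214, 37.7 and 382 CPM in HU, 385, 150 and 595 CPM in Thy-Noc, and 207, 204 and 239 CPM in DMSO. A spread of at least 10-fold within a group, after adding 0.5 CPM, was seen in 1838 of the 11346 tested genes (16.2%), and in these 2 of the 20 tested histone genes. For both, the log2 fold changes in HU against DMSO (2.70 ± 2.06 for H3-3A and -0.036 ± 0.78 for MACROH2A1) did not exceed the spread (edgeR adjusted p = 0.525 and 0.989).

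H1-10, the H1 variant also called H1X, had 3.25, 2.73 and 2.38 CPM in HU, against 1.90, 2.44 and 1.72 CPM in DMSO. The groups overlapped, and the log2 fold change of 0.47 ± 0.25 did not pass (edgeR adjusted p = 0.339). H3-5, an H3.3-like gene known from testis, was under the filter, with 76, 40 and 108 counts in HU, 58, 30 and 77 counts in Thy-Noc, and 68, 56 and 46 counts in DMSO.

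In Thy-Noc against DMSO no histone gene was called, by edgeR or by DESeq2, and none had an unadjusted p under 0.05. Few genes were called at all there, 0.0353% of those tested by edgeR and 1.64% by DESeq2, with 4.49% at an unadjusted p under 0.05. The replication-dependent genes had 30 of 48 positive log2 fold changes with a median of 0.17, beside 0.010 over all listed genes. In Thy-Noc, 4 genes (H1-5, H2AC18, H2AC19 and H2BC12) were higher than in DMSO without overlap (8.33%, beside 4.87% of all listed genes), and H4C16 was lower (beside 4.7% of all). The 4 count H2AC18 and H2AC19 as 2 genes, though the pair is 1 measurement. The largest log2 fold changes among tested members were 1.23 ± 0.64 for H2AC6 and 1.18 ± 0.61 for H4C8, neither past the threshold. Variants had a median of 0.0015, and none stood apart from DMSO. Both treatments were set against the same DMSO libraries, so the 2 comparisons are not independent.

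In HU against Thy-Noc, edgeR called none of the tested histone genes, while 1.75% of all genes were called, and 19.4% had an unadjusted p under 0.05, beside 6 histone genes. Of these 6 genes, H2AC18 (log2 fold change 1.58 ± 0.34, edgeR adjusted p = 0.0677), H2AC19 (1.61 ± 0.35, adjusted p = 0.0681), H2BC5 (1.29 ± 0.34, adjusted p = 0.105) and H2BC12 (1.17 ± 0.37, adjusted p = 0.153) were higher in HU. H2AX (-0.66 ± 0.22, edgeR adjusted p = 0.162) and H2AZ2 (-0.45 ± 0.16, adjusted p = 0.200) were lower in HU. HU and Thy-Noc libraries did not overlap for any of the 6, although the gap was narrow for H2AX and H2BC12. DESeq2 called the first 4 of them and H2AX, and called 16.7% of all genes it tested. Over the 48 replication-dependent genes the median log2 fold change was 0.22, and -0.21 without HU replicate 1. HU was higher without overlap for 6 of them (12.5%, beside 11.5% of all listed genes) and lower for 3 (6.25%, beside 10.7%). Here and among the 6 genes above, H2AC18 and H2AC19 count as 2 genes but are 1 measurement. The variants had a median of -0.25, with H1-10 higher and H2AX and H2AZ2 lower in HU without overlap. H1-5 was lower in HU than in Thy-Noc as well, and was the member called in the fit without a low-count filter (-2.79 ± 0.33, edgeR adjusted p = 0.0263), where 0.22% of all genes were called lower.

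Genes that make and process histone mRNA were set beside the histone genes. Of 32 such genes, all tested, 2 were higher and 2 lower in HU than in DMSO by edgeR, beside 2% and 1.56% of all tested genes. DESeq2 called 5 higher and 7 lower, beside 9.87% and 9.66% of its genes. Their median log2 fold change was -0.32, beside 0.018 over all tested genes. SLBP, which binds the stem-loop, had 254, 230 and 288 CPM in HU, 232, 286 and 263 CPM in Thy-Noc, and 77.4, 73.8 and 79.1 CPM in DMSO. Both treatments were far above DMSO, with log2 fold changes of 1.75 ± 0.12 in HU (edgeR adjusted p = 0.00329) and 1.76 ± 0.12 in Thy-Noc (adjusted p = 0.00518). SLBP was the only gene of the list that edgeR called in Thy-Noc against DMSO. CCNE2, the cyclin partner of CDK2 in S-phase entry, had 66.4, 35.1 and 101 CPM in HU, against 9.91, 11.0 and 9.70 CPM in DMSO (log2 fold change 2.73 ± 0.49, edgeR adjusted p = 0.0377). TUT7, a uridylyl transferase that acts on histone mRNA tails (-0.87 ± 0.18, edgeR adjusted p = 0.0478), and SNRPF, an Sm protein shared by splicing particles (-0.46 ± 0.09, adjusted p = 0.0391), fell in HU. NPAT, the coactivator of replication-dependent histone genes, did not pass, at 0.42 ± 0.13 in HU against DMSO (edgeR adjusted p = 0.129).

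Of 31 histone chaperone and import genes, 3 fell in HU against DMSO and none rose by edgeR, beside 1.56% of all tested genes lower and 2% higher. DESeq2 called 10 lower and 1 higher, beside 9.66% and 9.87% of its genes, and the median log2 fold change was -0.33. ANP32E, which removes H2A.Z from chromatin, had 335, 327 and 298 CPM in HU, against 627, 518 and 626 CPM in DMSO (-0.88 ± 0.15, edgeR adjusted p = 0.0318). SUPT16H, a subunit of the FACT chaperone of H2A-H2B, gave -0.56 ± 0.09 (edgeR adjusted p = 0.0259), and INO80, a remodeller that acts on H2A.Z nucleosomes, gave -0.79 ± 0.14 (adjusted p = 0.0342). None of this list was called in Thy-Noc against DMSO by edgeR or DESeq2, with 2 genes at an unadjusted p under 0.05, beside 4.49% of all tested genes. In HU against Thy-Noc, edgeR called SUPT16H (adjusted p = 0.0385) and RBBP7, an H3-H4 chaperone subunit (adjusted p = 0.0383), lower in HU. It also called SNRPF of the processing list lower there (adjusted p = 0.0354). In that comparison edgeR called 1.75% of all tested genes in either direction.

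Genes of S phase and of mitosis were read in the same fit. None of 16 S-phase genes was called in HU against DMSO by edgeR (median log2 fold change 0.083). Of the 16, 4 had an unadjusted p under 0.05, beside 21.2% of all tested genes. DESeq2 called 1 of them lower, beside 9.66% of its genes. By edgeR, 4 of 15 G2 and mitosis genes, CDC20, TOP2A, CENPF and CKS2, were lower in HU (median -0.86), beside 1.56% of all tested genes. DESeq2 called 6 of the 15 lower. CDC20, the mitotic activator of the anaphase-promoting complex, had 64.7, 41.3 and 70.3 CPM in HU, 339, 215 and 261 CPM in Thy-Noc, and 211, 211 and 190 CPM in DMSO. No gene of either list was called in Thy-Noc against DMSO by edgeR or DESeq2, and none had an unadjusted p under 0.05. In HU against Thy-Noc, edgeR called CDC20, BUB1, TOP2A, CENPF and CKS2 lower in HU (adjusted p of 0.0131 to 0.045), 5 of the 15. In that comparison edgeR called 1.75% of all tested genes in either direction. The part that the share of cells in each phase plays in the histone values was not tested.

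Library totals ran from 74940755 to 110485145 counts, and the median tested gene had 1187 counts. All 8 B-cell markers were detected, with a summed level of 1650 to 2374 CPM in HU, 1653 to 2616 CPM in Thy-Noc and 1864 to 2328 CPM in DMSO. None of 4 T-cell, 2 erythroid and 2 epithelial markers was listed. The 1 listed monocyte marker of 4, LYZ, stood at 0.658 to 0.924 CPM in HU, 0.234 to 0.331 CPM in Thy-Noc and 0.216 to 0.411 CPM in DMSO, higher in HU without overlap but under the filter. The 1 listed fibroblast marker of 2, COL1A1, stood at 8.09 to 13.7 CPM in HU, 1.97 to 5.19 CPM in Thy-Noc and 1.30 to 3.88 CPM in DMSO. It was also higher in HU without overlap (log2 fold change 1.97, edgeR adjusted p = 0.0859). The part of either marker in the HU results was not tested.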

How the data were processed

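The labels' protocols name a stranded mRNA kit for the Raji libraries. FastQC, Trim Galore, STAR and DESeq2 appear, with no version, in the submitters' processing notes, as does the build GRCh38. Counting tool, annotation and strand use are not stated there, so near-identical, overlapping and antisense genes are uncertain.

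The authors deposited 1 table of expected counts: its name says CPM, but its values are whole, none is 0, and totals are unequal between libraries. What step rounded or offset these deposited expected counts is not stated by the authors. In 274 genes every library holds exactly 1, so some low values may be a floor.

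Genes with at least 1 CPM in at least 3 of 9 libraries (11346) were tested in R 4.3.3 with edgeR 4.0.16: TMM scaling, a quasi-likelihood fit of the 3 groups on all 9 libraries (6 residual degrees of freedom), 2-sided tests, Benjamini-Hochberg adjustment, threshold 0.05. Medians and non-overlap counts use all listed genes without that filter. Printed CPM are on library sizes scaled by TMM. Alternatives were DESeq2 1.42.0, limma 3.58.1 on log2(CPM + 0.1, 0.5 or 1), other scalings and filters, a replicate block, the 6 libraries compared, robust dispersions and leaving out each library. After the data were seen, 2 more were added: 1 subtracted from every value, and near-identical copies summed. The script was tested on simulated data.

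Every histone gene above the filter is named, and others by their range or where groups did not overlap. From the lists of processing, chaperone, S-phase and G2 genes, those past the threshold are named, and NPAT was added after its values were seen. The annotated-span split, the low-count examples, the H2B sum without H2BC12 and the sums without an HU library were also chosen after values were seen. So were the genes singled out within the H2A and H4 sums. The members and lists were chosen with earlier results of these data known. Of the 56 genes, H2AC18, H2AC19 and H3-5 were matched by older names, and 7 pseudogenes were left out. Protein sequences were not used here. Intervals of low counts cover counting error only.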

Additional observations from a re-analysis of the deposited data

How the results depend on the processing

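Calls were few, and most depended on the tool or on single libraries. H2BC12 kept its direction in all 22 alternatives, H2AC18 in the 18 and H2AC19 in the 17 that could test them. For these genes all HU libraries lay above all DMSO libraries, so leaving out a library could hardly turn the sign. Their kept direction is therefore no support for the calls. In HU against DMSO the replication-dependent genes had 3 calls, against 7 with DESeq2, 1 with a minimum of 5 CPM, 0 with only the 6 libraries compared, 0 with the replicate block and 0 to 2 with a library left out. The cause of the larger DESeq2 count was not tested. The replication-dependent median of 0.20 became 1.52 over genes with 1 CPM and 1.83 over those with 5 CPM in 3 libraries. It ran from -0.096 to 0.37 with a library left out. These minimums keep fewer genes, and 5 of the 13 kept at 1 CPM had no DMSO library at that level. Medians under the minimums are therefore no measure of the class. Over all genes the count of 404 became 2135 with DESeq2, 220 without a filter, 51 with 6 libraries, 9 with the block and 21 to 318 with a library left out. DESeq2 called 2 variants.

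In Thy-Noc against DMSO no histone gene was called in any alternative, and the replication-dependent median of 0.17 became 0.50 and 0.64 under the 1 and 5 CPM minimums. As in HU against DMSO, medians under the minimums are no measure of the class, here or in HU against Thy-Noc. All genes gave 4 calls, against 179 with DESeq2, 7, 12 and 12 with limma at a pseudocount of 0.1, 0.5 and 1 CPM, 0 with the block and 5 to 13 with a library left out. In HU against Thy-Noc the replication-dependent genes had 0 calls, 4 with DESeq2 and 1 without a filter, and a median of 0.22 that became 1.06 and 1.19 under the minimums and ran from -0.21 to 0.41 with a library left out. DESeq2 called 1 variant. All genes gave 199 calls, against 313 at 5 CPM, 1826 with DESeq2, 311, 326 and 346 with limma, 64 without a filter, 18 with 6 libraries, 0 with the block and 1 to 103 with a library left out.

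Whether the replicate numbers pair the samples could not be told from the values. Same-numbered libraries of different groups had correlations of deviations from -0.035 to 0.0405, and other pairs from -0.0536 to 0.0331. These do not show whether same-numbered libraries were handled together, so the block results show only what a shared number does. Without HU replicate 1, 2 or 3, and at 5 CPM, H2AC18 and H2AC19 fell under the filter. Total-count scaling put the median of all tested genes at 0.12 in HU against DMSO and 0.16 in HU against Thy-Noc, beside 0.018 and 0.0096 with TMM.

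Reversals were all in genes that were not called. With total-count scaling MACROH2A1 in HU against DMSO was 0.092 and H3-3B in HU against Thy-Noc was 0.064. With the block H1-10 in Thy-Noc against DMSO was 0.000494 and H4C14 in HU against Thy-Noc was -0.21, and limma gave H4C14 there -0.12, -0.062 and -0.030. With a library left out, log2 fold changes in HU against DMSO crossed 0 for H2BC15 (-0.53 to 0.035), H2BC18 (-0.61 to 0.17), H3-3B (-0.000275 to 0.25), H4C14 (-0.30 to 1.27) and MACROH2A1 (-0.78 to 0.46). In Thy-Noc against DMSO they did for H1-10 (-0.14 to 0.15), H2AX (-0.36 to 0.00421), H2AZ1 (-0.50 to 0.22), H2AZ2 (-0.16 to 0.071), H2BC15 (-0.047 to 0.49), H2BC18 (-0.30 to 0.47), H2BC4 (-0.33 to 0.37), H3-3A (-0.53 to 4.59) and H4C15 (-0.049 to 0.94). In HU against Thy-Noc they did for H2AC6 (-0.37 to 0.71), H2BC18 (-0.66 to 0.068), H3-3B (-0.19 to 0.068) and H4C14 (-0.72 to 0.49). In all, of the single-gene values under alternatives, 1151 kept direction and side of the threshold, 27 lost it, 13 gained it and 35 changed sign. Most of these values were not called in the main fit, so they had no call to lose. All 27 losses were in the 3 calls of HU against DMSO. The call held in 11 of 18 alternatives for H2AC18, 10 of 17 for H2AC19 and 9 of 22 for H2BC12. The 35 replication-dependent genes under the filter had at most 124 counts in a library.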
